A study of Mus musculus with 5 samples.

Results

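The 10 enzymes described here are the superoxide dismutases Sod1 and Sod2, catalase (Cat), the glutathione peroxidases Gpx1 and Gpx4, and the peroxiredoxins Prdx1, Prdx2, Prdx3, Prdx5 and Prdx6. They were taken from the gene table by symbol, and all 10 were found among its 11048 genes and among the 10542 tested. Liver RNA came from db/db mice, which lack a working leptin receptor and become obese and diabetic. The SR4 group had 2 libraries, from mice given SR4 at 10 mg/kg body weight by oral gavage for 5 weeks, and the vehicle group had 3 libraries, from mice given vehicle for the same time. Both followed 1 week of acclimatization, and all 5 libraries carry the db/db defect, so no lean control enters the comparison. SR4 is a code name for a compound that the series title calls a proton transporter activated by fatty acids, and the title names oxidative stress and mitochondrial function. The genotype field of the labels says only control or SR4 treated, and the db/db background comes from the design text. Sex and age of the mice were not in the labels. No label ties a library to its own animal, so every p-value below rests on the scatter among 5 samples, part of which may be technical.

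Superoxide leaks from the respiratory chain and from oxidases, and superoxide dismutases turn it into hydrogen peroxide and oxygen. Catalase removes hydrogen peroxide in peroxisomes, glutathione peroxidases reduce peroxides with glutathione, and peroxiredoxins reduce them through a reactive cysteine that is mostly recharged by thioredoxin. The liver is rich in these enzymes because its fatty acid oxidation and detoxification reactions produce peroxide.

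Of the 10 transcripts, 0 passed the test in SR4 against vehicle livers (limma adjusted p under 0.05 over all genes), where 1.32% of all genes tested passed, 0.436% as higher and 0.882% as lower. The fitted change was above 0 for 8 of the 10, a larger share than the 49.0% of all genes. The median log2 fold change of the 10 was 0.15, beside -0.01 over all genes. Prdx6 had the highest fitted change, 1.30-fold in SR4 over vehicle, and Gpx4 the lowest, 0.671-fold. For 4 of the 10, the SR4 and vehicle values did not overlap, beside 41.5% of all genes. In Cat, Gpx1 and Prdx6 both SR4 libraries were above all vehicle libraries, as in 21.1% of all genes. In Gpx4 both were below, as in 20.4%. These ranges are of values after the scaling described below. With libraries scaled to equal totals only, the groups overlapped for Cat and Gpx1 and did not for Prdx6 and Gpx4. An unadjusted limma p under 0.05 was found for 1 of the 10, Gpx4, which was lower. Over all genes that share was 21.4%, with 10.2% higher and 11.1% lower. The counts of members outside the range and with a small unadjusted p were thus near or under the shares of all genes.

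Gpx1 and Gpx4 are selenoproteins: an in-frame TGA, elsewhere a stop, is read as selenocysteine, the residue that attacks the peroxide. The stretches of coding sequence around that codon are shown because these 2 glutathione peroxidases had fitted changes of opposite sign, neither of which passed. They were read from GENCODE M21 transcripts (GRCm38), and the capitals mark the TGA, which is codon 47 of the Gpx1 coding sequence and codon 73 of that of Gpx4. Of the 30 bases in each, 17 were equal.
Gpx1: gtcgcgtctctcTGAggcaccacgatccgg
Gpx4: gtggcctcgcaaTGAggcaaaactgacgta

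NRF2, the transcription factor encoded by Nfe2l2, binds antioxidant response elements and is known to drive several antioxidant genes, including Prdx1 and Srxn1, which encodes the sulfiredoxin that repairs overoxidised peroxiredoxins. RefSeq promoter windows of 300 bases (GRCm38.p6, 250 before to 50 after the gene start) were matched for 9 members with 12 windows, and for Srxn1. The element core TGACNNNGC, searched on both strands, was in 2 of the 12 member windows, those of Prdx1 and Sod1, and in 12.4% of all 32851 windows. The variant TGAGNNNGC was found in 1 of the 12 member windows, that of Prdx1, and in 17.6% of all windows. The matches printed below do not overlap each other. Of the other motifs searched on both strands, the GC box GGGCGG was in 11 of the 12 member windows and in 35.7% of all windows. Each of the 9 members had at least 1 window with it. The FOXO core GTAAACA and the E-box CACGTG were in 0 of the 12 member windows, against 3.65% and 7.15% of all windows. The windows of Prdx1 (chr4:116685349-116685648, plus strand), Sod1 (chr16:90220512-90220811, plus strand) and Srxn1 (chr2:152105274-152105573, plus strand) are shown because they hold matches, in capitals, to the core or its variant. The Prdx1 window holds GCTGAGTCA, 133 bases before the start, and GCGTTCTCA at base 16 after it. The Sod1 window holds GCGTGGTCA, 56 bases before the start. The Srxn1 window holds GCCGACTCA at 158 and TGAGTCAGC at 45 bases before the start and GCTAGGTCA at base 29 after it. A match is a run of letters and not a measured binding site.
Prdx1: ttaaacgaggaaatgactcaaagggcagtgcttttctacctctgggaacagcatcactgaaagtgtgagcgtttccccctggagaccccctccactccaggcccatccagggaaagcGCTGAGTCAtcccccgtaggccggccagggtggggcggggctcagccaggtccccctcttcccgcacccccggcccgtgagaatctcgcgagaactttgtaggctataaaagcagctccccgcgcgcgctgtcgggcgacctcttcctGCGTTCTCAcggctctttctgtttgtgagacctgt
Sod1: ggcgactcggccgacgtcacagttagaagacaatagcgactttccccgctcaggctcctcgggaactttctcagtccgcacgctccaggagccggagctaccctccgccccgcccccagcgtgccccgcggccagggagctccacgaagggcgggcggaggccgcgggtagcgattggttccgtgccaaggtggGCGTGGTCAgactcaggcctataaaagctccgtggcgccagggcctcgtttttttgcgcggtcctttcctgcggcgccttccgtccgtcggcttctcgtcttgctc
Srxn1: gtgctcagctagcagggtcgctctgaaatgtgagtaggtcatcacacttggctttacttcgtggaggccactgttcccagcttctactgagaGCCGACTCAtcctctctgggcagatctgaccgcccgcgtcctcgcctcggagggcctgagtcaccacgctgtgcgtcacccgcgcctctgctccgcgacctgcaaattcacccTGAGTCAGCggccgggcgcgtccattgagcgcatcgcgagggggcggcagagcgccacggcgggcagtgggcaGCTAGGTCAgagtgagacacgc

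The libraries held 28113053 and 26407478 reads in SR4 1 and 2, and 24307955, 26768052 and 22878338 in vehicle 1, 2 and 3, as recovered from the deposited values. Of all genes tested, 46 were called higher and 93 lower, and 37 and 135 when libraries were scaled to equal totals only. Every one of the 10 transcripts had at least 3054 recovered reads in each library, so counting alone gave an error of at most 1.81%. Values below are normalised counts, the deposited library-size-adjusted counts divided by a TMM scaling factor, and are given as mean ± SD (n = 2 for SR4, n = 3 for vehicle) or per library. The factors were 0.946 and 0.958 for SR4 1 and 2, and 1.077, 1.008 and 1.017 for vehicle 1, 2 and 3. Fold changes and their 95% intervals come from limma on log2(value + 1). The most abundant hepatocyte markers were Alb (albumin) and Ttr (transthyretin), which fits the liver label. They averaged 1977500 and 149140 normalised counts in SR4 and 1857700 and 188460 in vehicle libraries. Of the 7 hepatocyte markers tested 0 passed, 5 had a fitted change above 0, and the median log2 fold change was 0.28. In 4 of the 7, Serpina1c, Fgb, Cps1 and Hnf4a, both SR4 libraries were above all vehicle libraries, beside 21.1% of all genes. The groups overlapped for Alb, Apoa1 and Ttr, and the log2 fold changes of Apoa1 and Ttr were -0.47 and -0.35. Apoa1 had 133470 and 29530 in SR4 1 and 2, against 103710, 82583 and 76829 in vehicle 1, 2 and 3. The part of hepatocytes in the enzyme values was not tested.

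The dismutases come first in the pathway. Sod1, the copper and zinc enzyme of the cytosol (chromosome 16, 90220754 to 90226329, GRCm38, protein-coding), had 16126 and 17505 normalised counts in SR4 1 and 2, against 11268, 12408 and 16586 in vehicle 1, 2 and 3. The groups overlapped, because vehicle 3 was above SR4 1. The log2 fold change was 0.34 ± 0.20 (SE; limma adjusted p = 0.360), with a 95% interval from 0.918-fold to 1.76-fold. Sod2, the manganese enzyme of the mitochondrial matrix (chromosome 17, 13006846 to 13040063), had 5180 and 6286 in SR4 1 and 2, against 4548, 5430 and 5284 in vehicle 1, 2 and 3. SR4 1 lay inside the vehicle range and SR4 2 above it. Its log2 fold change of 0.17 ± 0.15 did not pass (limma adjusted p = 0.545; interval 0.882-fold to 1.43-fold). It was 0.03 without SR4 2 and 0.31 without SR4 1. Ccs, the chaperone that loads copper into Sod1, had 4674 and 4605 in SR4 libraries, against 3143, 3497 and 4071 in vehicle libraries, which did not overlap, and it did not pass (limma adjusted p = 0.184).

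Cat, the heme enzyme of peroxisomes (chromosome 2, 103453849 to 103485160), had the most counts of the 10. It had 95155 and 93273 normalised counts in SR4 1 and 2, against 67998, 84536 and 90254 in vehicle 1, 2 and 3. Both SR4 libraries were above all vehicle libraries, while the vehicle libraries alone spread by more than the distance between the group means. With equal totals only, vehicle 3 was above both SR4 libraries for Cat. The log2 fold change was 0.23 ± 0.21 (limma adjusted p = 0.556; interval 0.837-fold to 1.64-fold), and 0.11 without vehicle 1. Gpx1, the main cytosolic glutathione peroxidase (chromosome 9, 108338903 to 108340343), had 45878 and 49636 in SR4 1 and 2, against 32160, 43345 and 39091 in vehicle 1, 2 and 3. Again the SR4 libraries were above the vehicle range and vehicle 1 was the lowest. With equal totals only, vehicle 2 was above SR4 1 for Gpx1. For Gpx1 the log2 fold change was 0.33 ± 0.19 (limma adjusted p = 0.366; interval 0.916-fold to 1.73-fold), and 0.21 without vehicle 1.

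Gpx4, which reduces lipid hydroperoxides inside membranes and restrains ferroptosis (chromosome 10, 80047166 to 80056439), had 6300 and 7108 normalised counts in SR4 1 and 2, against 13509, 7697 and 9554 in vehicle 1, 2 and 3. Both SR4 libraries were below the vehicle range, and vehicle 1 stood well above the other two vehicle libraries. The log2 fold change was -0.58 ± 0.24 (limma adjusted p = 0.231, unadjusted p = 0.0481), with a 95% interval from 0.452-fold to 0.995-fold. Without vehicle 1 it was -0.36, and it ran from -0.76 to -0.36 over all 5 libraries left out in turn. Gpx4 has 2 pseudogenes whose transcripts match 90.1% and 93.4% of its coding sequence at 95.1% and 99.6% identity. Its recovered reads were whole numbers in 0 of 5 libraries, unlike those of 7 other members, and its value is uncertain where reads could be split with the copies. The genes closest to Gpx4 in library pattern were Rnd3, Wfdc17 and Lpxn. Their root mean square distances from it were 0.050, 0.062 and 0.067 on the log2 scale, over 5 libraries centred on each gene's mean. Rnd3 had 323 and 356 normalised counts in SR4 libraries, against 684, 412 and 524 in vehicle libraries (limma adjusted p = 0.161). Wfdc17 and Lpxn did not pass either (limma adjusted p = 0.319 and 0.532).

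Macrophage markers were read beside Gpx4. The summed level of the 9 measured markers of macrophages and Kupffer cells was 6144 and 3123 normalised counts in SR4 1 and 2, against 9618, 6320 and 7929 in vehicle 1, 2 and 3. All 9 had a fitted change below 0 with a median of -0.78, 0 passed, and 0 were at 0 in all libraries. Much of this rested on SR4 2: without it the median was -0.22, and without SR4 1 it was -1.18 and 1 marker passed. The most abundant were Cd5l, with means of 981 in SR4 and 2000 in vehicle libraries, and Clec4f, with 1066 and 1551. In bulk tissue, fewer cells of a type and less RNA per cell cannot be told apart, and the part of these cells in the Gpx4 values was not tested. The 8 stellate cell markers were likewise all below 0 with 0 passing, summing to 8460 and 6360 in SR4 and 13468, 13464 and 8013 in vehicle libraries, with Dcn and Col3a1 the most abundant. Their median was -0.76, and it was -0.41 with 1 marker above 0 when SR4 2 was left out.

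**Figure D1:**
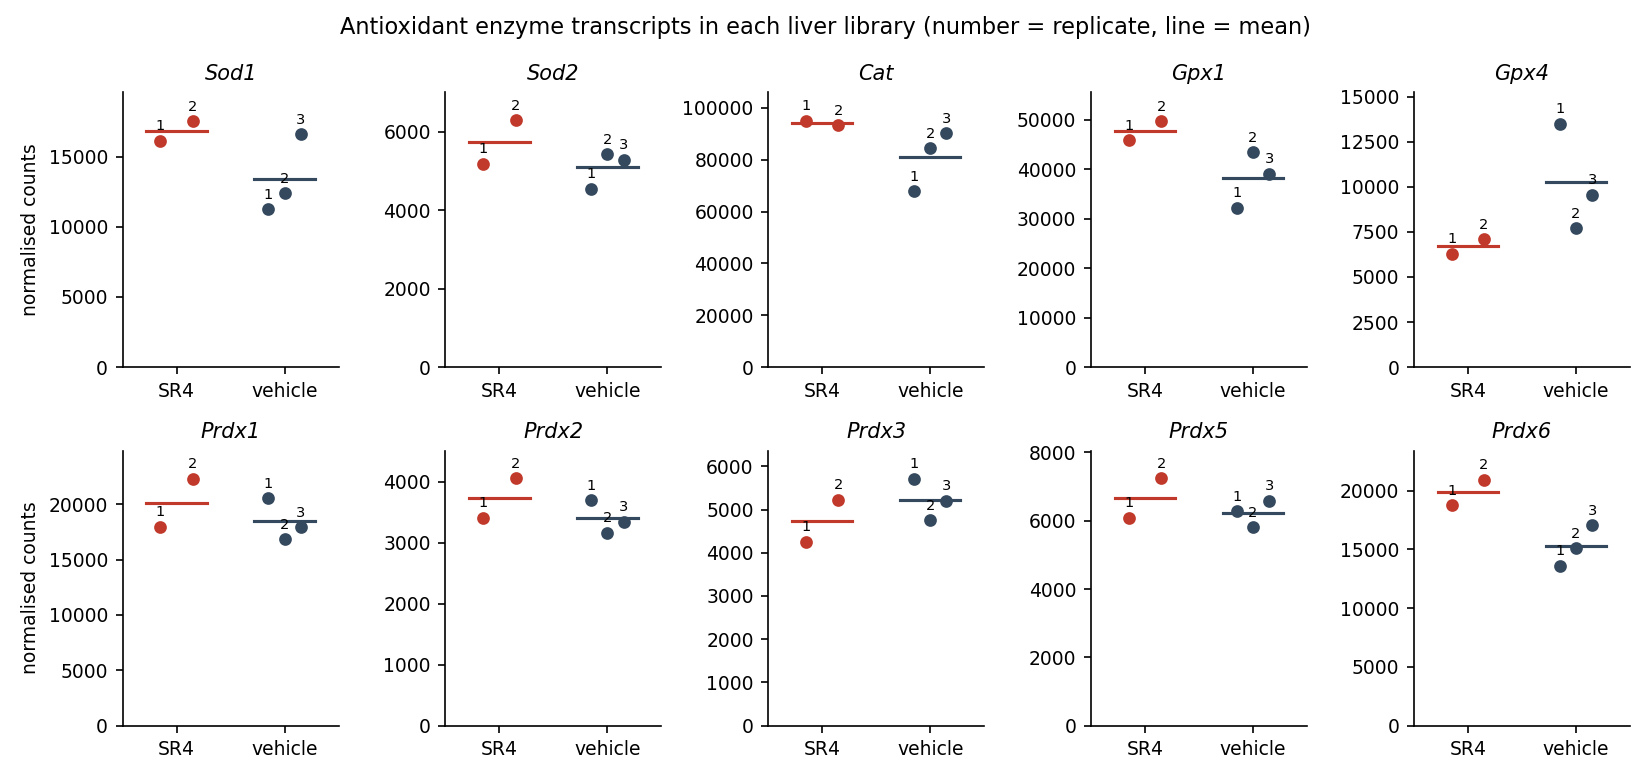
Normalised counts (y axis, from 0) of the 10 enzyme transcripts in SR4 (left) and vehicle (right) livers. Each point is 1 library with its replicate number and each line a group mean; the SR4 points lie above all vehicle points for Cat, Gpx1 and Prdx6 and below them for Gpx4, and overlap them for the other 6.

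Among the peroxiredoxins, Prdx6 differed most between the groups. Prdx6, the 1-cysteine enzyme that uses glutathione and also has phospholipase activity (chromosome 1, 161240112 to 161251219), had 18774 and 20917 normalised counts in SR4 1 and 2, against 13597, 15109 and 17074 in vehicle 1, 2 and 3. The groups did not overlap. Its log2 fold change of 0.38 ± 0.16 did not pass (limma adjusted p = 0.238, unadjusted p = 0.0524; interval 0.996-fold to 1.71-fold) and lay between 0.30 and 0.47 when any library was dropped. Its recovered reads were whole in 0 of 5 libraries, and Prdx6b, a separate gene in the table, matches 100% of its coding sequence at 92.9% identity, so the split of reads between them is uncertain. Prdx6b itself, chosen after its values were seen, had 493 and 539 in SR4 libraries, against 407, 403 and 450 in vehicle libraries (limma adjusted p = 0.223).

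Prdx1 and Prdx2 are typical 2-cysteine peroxiredoxins of the cytosol. Prdx1 (chromosome 4, 116685544 to 116700822) had 17985 and 22326 normalised counts in SR4 1 and 2, against 20569, 16830 and 17949 in vehicle 1, 2 and 3. SR4 1 was inside the vehicle range and SR4 2 above it, and the log2 fold change of 0.12 ± 0.18 did not pass (limma adjusted p = 0.723; interval 0.817-fold to 1.45-fold). Prdx2, best known as an abundant red cell protein (chromosome 8, 84969587 to 84974834), had 3414 and 4059 in SR4 1 and 2, against 3703, 3163 and 3346 in vehicle 1, 2 and 3. The groups overlapped (log2 fold change 0.13 ± 0.13, limma adjusted p = 0.611; interval 0.879-fold to 1.37-fold), and the value was 0.01 without SR4 2 and 0.26 without SR4 1. The 5 measured erythroid markers, most of whose counts were globin, summed to 12528 and 10577 in SR4 libraries, against 15672, 22051 and 16617 in vehicle libraries. Of these markers 1 passed, the globin gene Hbb-bs, chosen after its values were seen, which fell by 1.17 on the log2 scale (limma adjusted p = 0.0334). That call was lost without vehicle 2, vehicle 3 or SR4 2 (limma adjusted p = 0.0877, 0.0602 and 0.129; range in all settings 0.0222 to 0.129). The most abundant, the globin genes Hba-a1 and Hba-a2, did not pass (log2 fold changes -0.77 and -0.73), nor did the globin gene Hbb-bt (-0.77). Alas2, the heme synthesis enzyme of red cell precursors, was on the other side, with 2014 and 2870 in SR4 libraries, against 1771, 1960 and 2474 in vehicle libraries (log2 fold change 0.23, limma adjusted p = 0.546). In 4 of the 5 erythroid markers, all globin genes, both SR4 libraries were thus below all vehicle libraries, beside 20.4% of all genes. Alas2 was the exception, and the part of red cell RNA in the Prdx2 values was not tested.

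Prdx3 and Prdx5 act in mitochondria, Prdx3 in the matrix alone and Prdx5 also in peroxisomes and the cytosol. Prdx3 (chromosome 19, 60864051 to 60874556) had 4252 and 5225 normalised counts in SR4 1 and 2, against 5713, 4747 and 5200 in vehicle 1, 2 and 3. SR4 1 was the lowest of the 5 libraries, and SR4 2 lay inside the vehicle range. Prdx3 had a log2 fold change of -0.14 ± 0.15 (limma adjusted p = 0.617; interval 0.710-fold to 1.16-fold). Prdx5 (chromosome 19, 6906697 to 6910106) had 6092 and 7250 in SR4 1 and 2, against 6285, 5801 and 6579 in vehicle 1, 2 and 3. SR4 1 lay inside the vehicle range and SR4 2 above it (log2 fold change 0.10 ± 0.14, limma adjusted p = 0.728; interval 0.851-fold to 1.34-fold). Prdx4, the peroxiredoxin of the endoplasmic reticulum, is not among the 10. It had 1409 and 1512 in SR4 libraries, against 1328, 1087 and 1130 in vehicle libraries, and did not pass (limma adjusted p = 0.218).

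**Figure D2:**
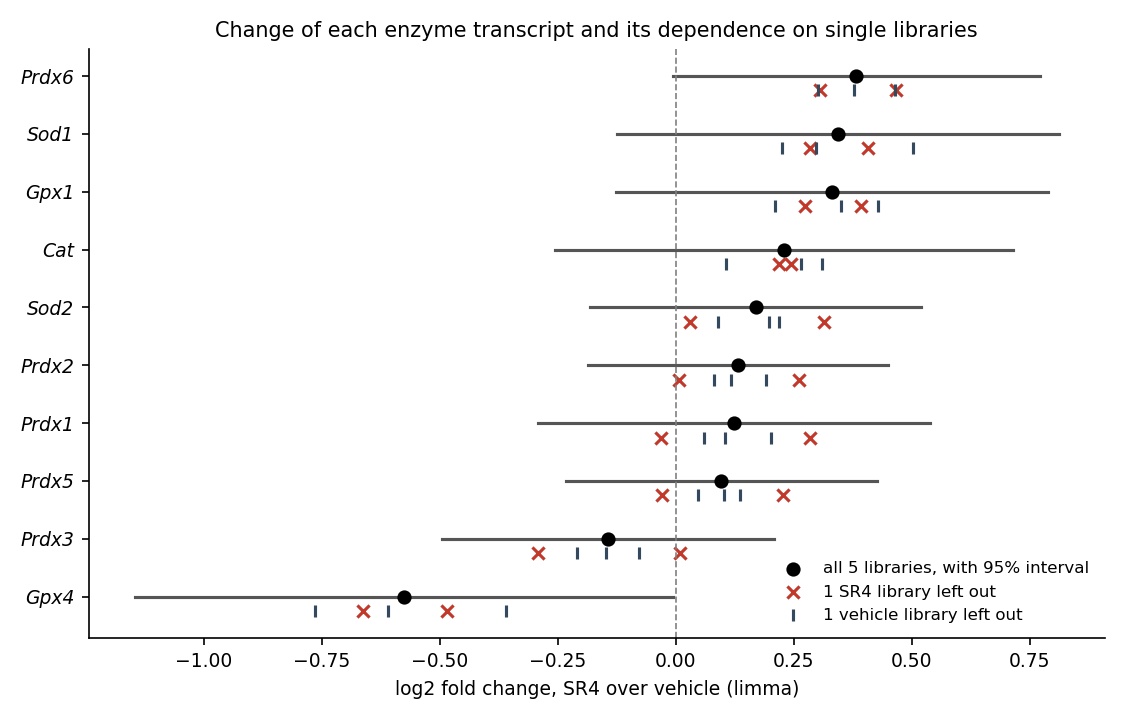
Fitted log2 fold change of each transcript, SR4 over vehicle (x axis), with its 95% interval and the value after leaving out each library. The intervals of 9 transcripts span 0 and that of Gpx4 ends at -0.007; the fitted values of Prdx1, Prdx3 and Prdx5 cross 0 when 1 SR4 library is left out.

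The library preparation did not keep the strand, and some of these genes share exon bases with genes on the opposite strand. In GENCODE M21, Prdx2 shares 177 exon bases with Rnaseh2a and 173 with Junb, and Prdx5 shares 409 with Trmt112. Reads from such stretches cannot be told apart. Pseudogene transcripts matching at least 50% of the coding sequence at 90% identity or more were also found for Prdx1 (3), Prdx2 (1) and Sod1 (1), and their recovered reads were whole in all 5 libraries.

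Levels of different genes were compared as normalised counts per kilobase of the main annotated transcript. Gpx1 was highest, at 44550 ± 2480 per kilobase in SR4 and 35630 ± 5270 in vehicle libraries. Cat followed at 36060 ± 509 and 30970 ± 4420, and Sod1 at 26230 ± 1520 and 20940 ± 4370. Within every library the order was Gpx1, Cat, Sod1, although the ranges over the 5 libraries overlapped between neighbours. Gpx4 had 6991 ± 596 per kilobase in SR4 and 10690 ± 3100 in vehicle libraries, and its place above Prdx1 held in 3 of 5 libraries. Prdx1 had 8786 ± 1340 and 8042 ± 837 per kilobase, and Prdx6, with 8314 ± 635 and 6393 ± 730, was below it in 4 of 5. Prdx5, Prdx3 and Prdx2 came next in that order in every library. Prdx5 had 5286 ± 648 per kilobase in SR4 and 4930 ± 311 in vehicle libraries. Prdx3 had 3206 ± 465 and 3532 ± 327, and Prdx2 had 2318 ± 283 and 2112 ± 170. Sod2 was lowest, at 978 ± 133 and 868 ± 80.7, below every other member in all 5 libraries. That place rests on its length, since its main transcript has 5861 bases, of which 669 are coding. By normalised counts alone Prdx2 was the lowest of the 10. With the union of all annotated exons as the length, the order began with Cat, Gpx1, Prdx1, Gpx4 and Sod1. Sod2 was again last, with a union of 10008 bases.

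**Figure D3:**
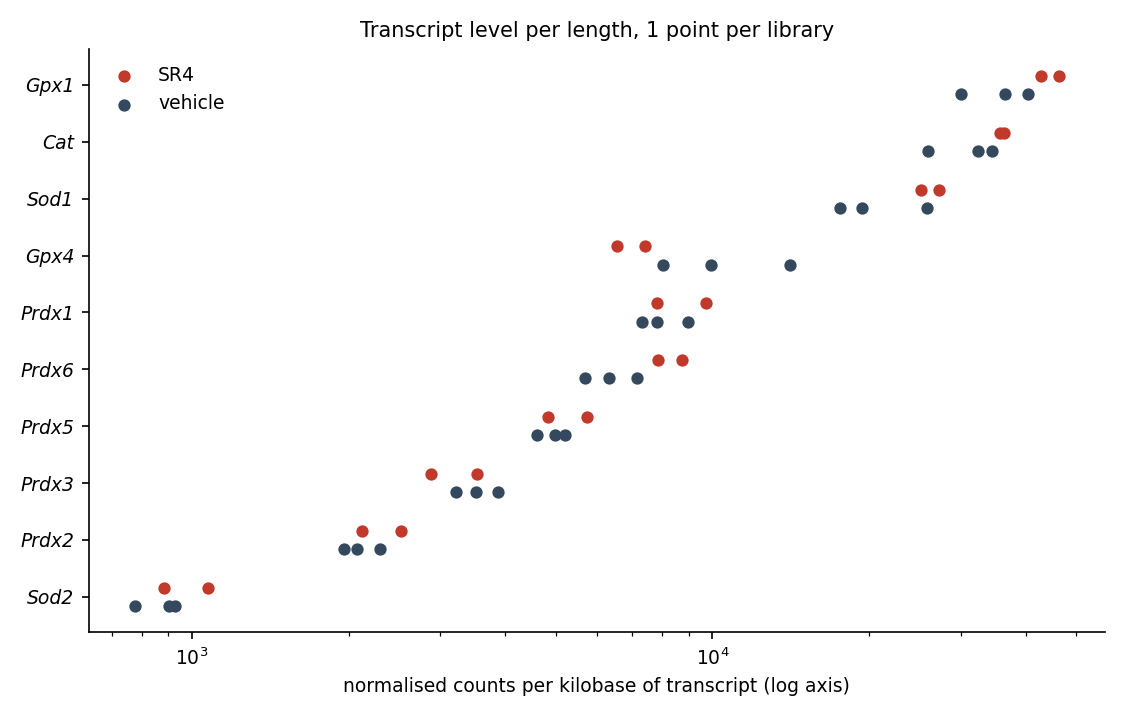
Normalised counts per kilobase of transcript (x axis, log scale) for each enzyme, with SR4 libraries drawn above vehicle libraries and 1 point per library. Gpx1, Cat and Sod1 lie above the other 7 in every library, and Sod2 lies lowest.

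The 10 transcripts did not vary as a block. The 10 together summed to 219155 and 233585 normalised counts in SR4 1 and 2, against 179350, 199068 and 210918 in vehicle 1, 2 and 3. The sums did not overlap after TMM scaling and are a description with no test. With libraries scaled to equal totals only, the sum of vehicle 3 was above that of SR4 1, so the groups overlapped. The 10 transcripts made up 0.758% to 0.878% of all counts of a library, most of it Cat and Gpx1. The 5 mainly cytosolic enzymes Sod1, Gpx1, Prdx1, Prdx2 and Prdx6 summed to 102177 and 114443 in SR4, against 81297, 90856 and 94047 in vehicle libraries, without overlap. The mainly mitochondrial Sod2, Prdx3 and Prdx5 summed to 15524 and 18760 in SR4, against 16546, 15978 and 17063 in vehicle libraries, with the SR4 values on both sides of the vehicle range.

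Prdx1 and Prdx2 were the closest of the 45 pairs, 0.029 apart in root mean square log2 distance, and Prdx2 held rank 6 among 10541 genes by closeness to Prdx1. The ratio of Prdx1 to Prdx2 counts was 5.27 and 5.50 in SR4 libraries, against 5.55, 5.32 and 5.36 in vehicle libraries, so it varied far less than either gene. Sod1 and Prdx6 were 0.089 apart, and Cat and Gpx1 0.102. Gpx1 and Gpx4, both glutathione peroxidases, were the farthest pair at 0.597. The ratio of Gpx1 to Gpx4 counts was 7.28 and 6.98 in SR4 libraries, against 2.38, 5.63 and 4.09 in vehicle libraries. Those values did not overlap and vehicle 1 was the lowest. The 5 libraries are the points of each distance, and they share depth and composition.

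**Figure D4:**
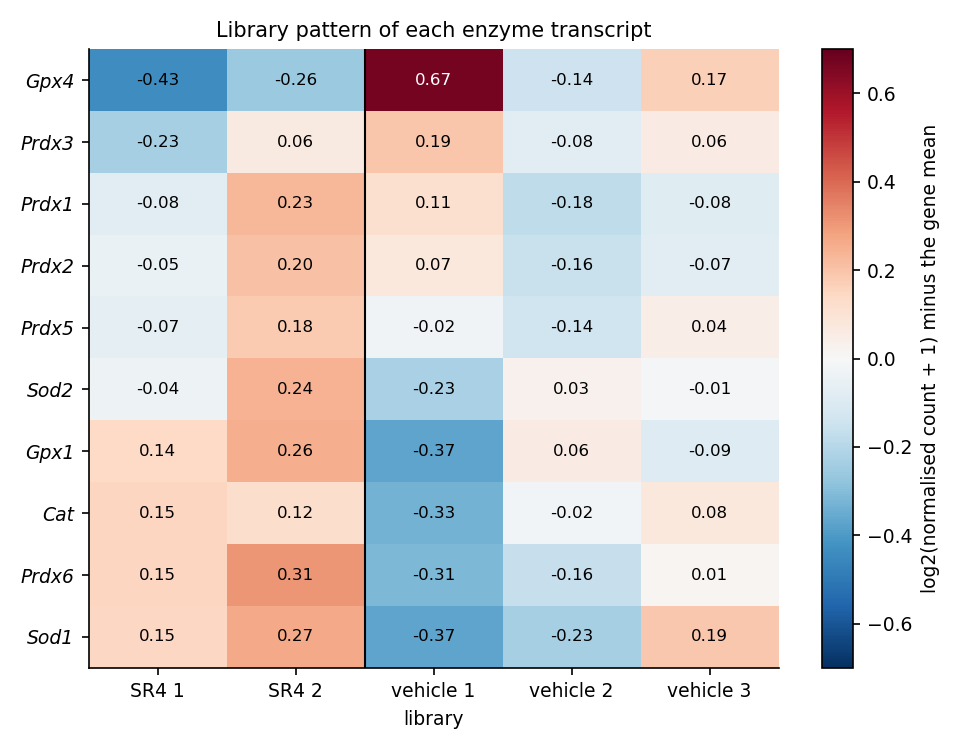
Log2(normalised count + 1) of each enzyme in each library, minus the gene's mean over the 5 libraries. Gpx4 is 0.67 above its mean in vehicle 1, where Sod1 and Gpx1 are each 0.37 below theirs, and SR4 2 is above the mean for all but Gpx4.

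Single libraries carried much of this pattern. SR4 2 was above SR4 1 for 9 of the 10 transcripts, Cat being the exception, a larger share than the 49.3% of all genes. Fitted without SR4 2, 6 of the 10 were above 0 and their median was 0.02. Fitted without SR4 1, 9 of the 10 were above 0 and their median was 0.27. Vehicle 1 was the lowest vehicle library for Sod1, Sod2, Cat, Gpx1 and Prdx6 and the highest for Gpx4, Prdx1, Prdx2 and Prdx3. For all genes it was the lowest in 37.1% and the highest in 37.0%. The SD within the vehicle group ran from 6.31% of the mean for Prdx5 to 28.9% for Gpx4. In the SR4 group it ran from 1.41% for Cat to 15.2% for Prdx1. With libraries scaled to equal totals only, the median of all genes moved to -0.13, that of the 10 to 0.03, and 7 of 10 were above 0.

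Genes that supply and regenerate these enzymes were read from lists of 8 kinds, chosen as the members were with earlier results known. In the thioredoxin and sulfiredoxin list, 0 of 12 tested genes passed, and the median was 0.10. Srxn1, the sulfiredoxin whose promoter is shown above, had 1941 and 1746 normalised counts in SR4 libraries, against 5289, 3302 and 3403 in vehicle libraries. The groups did not overlap, and the log2 fold change of -1.08 ± 0.22 did not pass (limma adjusted p = 0.0673); without vehicle 1 it was -0.87 and passed (adjusted p = 0.0373, within 0.0373 to 0.266 over the alternatives). Txnip, the inhibitor of thioredoxin, had 2069 and 1164 in SR4 libraries, against 3406, 2942 and 2559 in vehicle libraries (limma adjusted p = 0.118). Without SR4 1 its log2 fold change was -1.33 and passed (adjusted p = 0.0344), and without SR4 2 it was -0.51 and did not (adjusted p = 0.341), the ends of the range over the alternatives. The median of the list was -0.03 without SR4 1 and -0.02 without SR4 2.

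In the glutathione list, 0 of 13 genes passed, and the median was -0.05. Ggct, an enzyme of glutathione breakdown, had 109 and 97.8 normalised counts in SR4 libraries, against 208, 180 and 227 in vehicle libraries (log2 fold change -0.97 ± 0.19, limma adjusted p = 0.0630). G6pdx, which supplies the NADPH that keeps glutathione reduced, had 100.2 and 80.8, against 172, 161 and 146 (limma adjusted p = 0.0977). Neither pair of groups overlapped. Of the 13 genes, 6 had SR4 values outside the vehicle range, beside 41.5% of all genes. Glrx and Chac2 lay above it, and Gclc and Glrx5 below it. Gclc, the most abundant of the list, had 7323 and 4855 in SR4 libraries, against 13084, 9863 and 8385 in vehicle libraries (log2 fold change -0.78, limma adjusted p = 0.150). Summed over the list, the counts were 26975 and 23885 in SR4 libraries, against 35097, 30833 and 27863 in vehicle libraries.

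Among selenoprotein synthesis genes and other selenoproteins, 0 of 16 passed, and the median was 0.12. Selo (selenoprotein O) had 3193 and 3107 normalised counts in SR4 libraries, against 1629, 2044 and 2277 in vehicle libraries (limma adjusted p = 0.0838). Vimp (selenoprotein S) had 1860 and 1538, against 1189, 1221 and 1110 (limma adjusted p = 0.0847). Both were higher in each SR4 library than in any vehicle library. Of the 16 genes, 8 had SR4 values outside the vehicle range, beside 41.5% of all genes. The other genes outside it were chosen after their values were seen. Sephs2, Scly and Msrb1 lay above every vehicle library, as Selo and Vimp did. Sephs2 had 29493 and 30220 in SR4 libraries, against 20736, 27051 and 23190 in vehicle libraries (limma adjusted p = 0.310). Sepp1, Dio1 and Selt lay below every vehicle library, as Gpx4 did. Sepp1, which encodes the selenium carrier of plasma and was the most abundant of the list, had 118760 and 124170 in SR4 libraries, against 210660, 152150 and 149950 in vehicle libraries (limma adjusted p = 0.300). Dio1, a thyroid hormone deiodinase, had 1883 and 800.3, against 3138, 4170 and 2735 (log2 fold change -1.42, limma adjusted p = 0.115), and Selt had 2490 and 2674, against 3224, 3041 and 3015 (limma adjusted p = 0.230). Summed over the list, carried mostly by Sepp1, the counts were 173800 and 180900 in SR4 libraries, against 253390, 204810 and 198080 in vehicle libraries. Without SR4 1, 1 gene of the list passed.

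Peroxisomal oxidases make the hydrogen peroxide that catalase removes. In that list 0 of 9 passed, and the median was 0.305. Leaving out single libraries gave medians from 0.12 without SR4 1 to 0.36 without vehicle 2. Of the 9, 7 had SR4 values outside the vehicle range, some above and some below it, beside 41.5% of all genes. After TMM scaling the list summed to 189620 and 168210 in SR4 libraries, against 129700, 166510 and 163990 in vehicle libraries. Pipox, which oxidises pipecolic acid and sarcosine, had 10501 and 11590 normalised counts in SR4 libraries, against 5659, 7560 and 7076 in vehicle libraries (limma adjusted p = 0.0847). Ddo, D-aspartate oxidase, had 334 and 424, against 510, 598 and 554 (limma adjusted p = 0.109). The 15 genes of peroxisome import and biogenesis had a median of 0.02 and 0 that passed. Pex11a, a factor of peroxisome division, had 1311 and 672 in SR4 libraries, against 2093, 2288 and 2242 in vehicle libraries (log2 fold change -1.23 ± 0.27, limma adjusted p = 0.0817). Without SR4 1 it was -1.71 and passed (adjusted p = 0.00827, within 0.00827 to 0.173), and without SR4 2 it was -0.75 and did not (adjusted p = 0.142).

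Of 12 genes listed as NADPH oxidase and other oxidant producers, 1 rose and 0 fell, and the median was -0.37. The gene that rose, Sqrdl, is the mitochondrial sulfide quinone oxidoreductase, which oxidises hydrogen sulfide. It had 10661 and 10692 normalised counts in SR4 libraries, against 4529, 5698 and 5320 in vehicle libraries. The log2 fold change was 1.05 ± 0.14 (limma adjusted p = 0.0384) and lay between 0.95 and 1.12 when any library was dropped. The call was lost without vehicle 2, vehicle 3, SR4 1 or SR4 2 (adjusted p = 0.0952, 0.0877, 0.0534 and 0.142) and with limma-voom on recovered reads (0.0530), within 0.0293 to 0.142.

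Of 15 regulators of antioxidant genes 0 passed, and the median was 0.16. Nfe2l2, which encodes NRF2, had 1807 and 1637 normalised counts in SR4 libraries, against 3058, 2397 and 2906 in vehicle libraries. The groups did not overlap, and the log2 fold change of -0.69 ± 0.14 did not pass (limma adjusted p = 0.0653). Sirt3, the mitochondrial deacetylase known to activate the Sod2 protein, had 3191 and 3507, against 2281, 2757 and 2646 (limma adjusted p = 0.156). The list of other dismutases, peroxidases and peroxiredoxins, which holds Ccs and Prdx4, had 0 of 9 that passed and a median of -0.18. That median changed sign with single libraries, at 0.05 without vehicle 1, 0.02 without vehicle 2 and 0.04 without SR4 1.

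**Figure D5:**
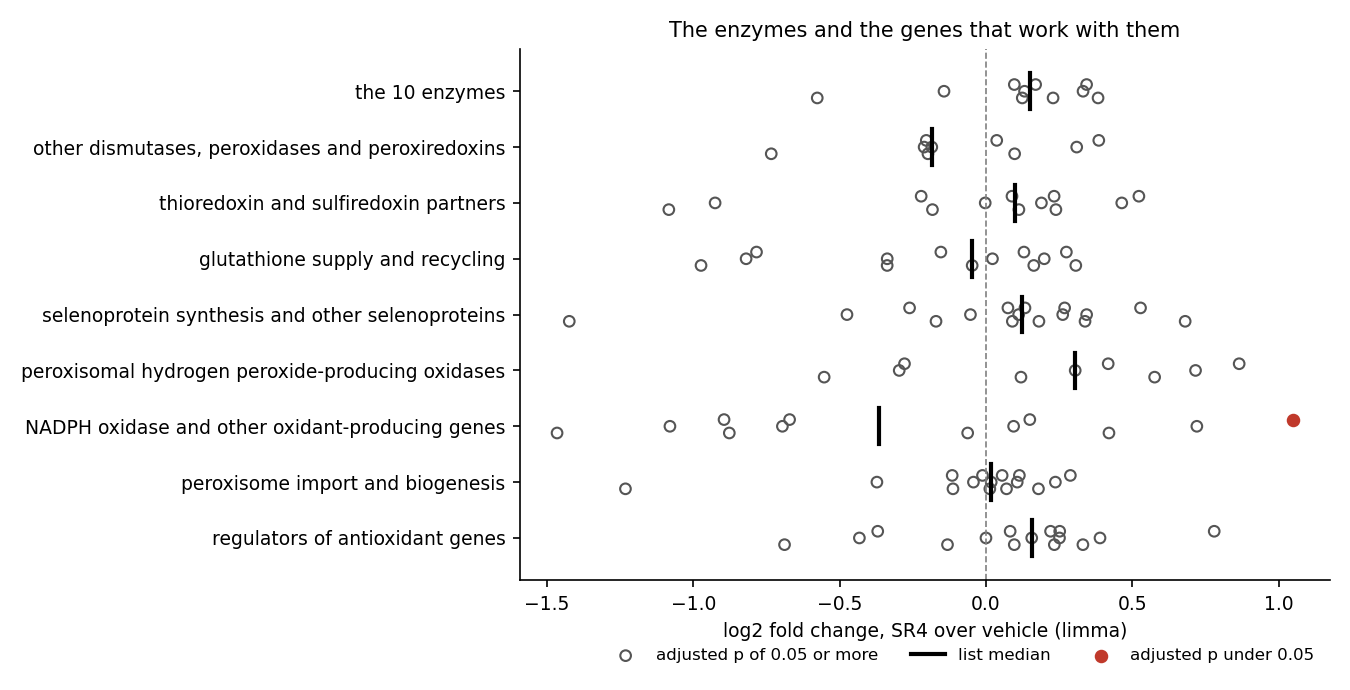
Log2 fold change, SR4 over vehicle (x axis), of each tested gene of the 10 enzymes and of the 8 lists of related genes, with the list median as a bar. Open circles did not pass the test, and the 1 filled circle is Sqrdl at 1.05.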

How the data were processed

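RNA-seq of 5 liver libraries was analysed. Libraries were made with TruSeq RNA V2 from 500 ng of RNeasy-purified total RNA, per the labels' protocols. TopHat2 2.1.1 and Partek are named with GRCm38 (mm10), per the submitters' processing notes. The counter, annotation and filters: not given in the sources used here. The deposited signal values were taken as gene read counts that the authors had adjusted to 1 library size, from the values themselves, since each column summed to about 25494249 and most values were not whole. Reads were recovered by inverting a per-group quantile adjustment of negative binomial counts (fitted dispersion 0.0767, 24 low-count patterns). Of 37770 recovered values up to 1000 reads, 85.3% were whole within 0.02 reads. Counting errors assume independent reads. Of 11065 rows, 17 with a calendar date for a symbol were left out.

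Values were divided by TMM factors (30% and 5% trims) and tested as log2(value + 1) with limma 3.58.1 (R 4.3.3; mean trend, robust shrinkage), for genes at 10 or more in at least 2 libraries, adjusted by Benjamini-Hochberg over all genes tested. The fit was tested on simulated data. The members and lists were chosen with earlier results of these data known. All members were named, and from each other list the genes that passed or, where none did, the 2 with the smallest p; from marker lists, the 2 most abundant; and the 3 genes closest to Gpx4 in pattern. One gene that this rule names is not reported here. Listed symbols were also looked up as RefSeq synonyms. Alternatives covered scaling, pseudocount, filter, shrinkage, a replicate block and leaving out each library; limma-voom on recovered reads was added after seeing the data. Python 3.11.15 and BLAST 2.17.0 were used for annotation against GENCODE M21.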

Additional observations from a re-analysis of the deposited data

How the results depend on the processing

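No member passed in any of the 15 alternative analyses. The smallest adjusted p of the 10 ran from 0.183 with equal totals only to 0.441 without SR4 2. The fitted value changed sign for Prdx1 without SR4 2 (-0.032; up to 0.285 without other libraries), for Prdx3 without SR4 1 (0.010; down to -0.292) and for Prdx5 without SR4 2 (-0.028; up to 0.227) and with equal totals only (-0.022). Among marker genes the sign changed for Alb with equal totals only (-0.025), without vehicle 1 (-0.006) and without SR4 1 (-0.066; up to 0.258). It also changed for Stab2 with the replicate block (0.191), without vehicle 3 (0.189) and without SR4 2 (0.282; down to -0.326). The count of all genes that passed, 139, was 84 with no filter and 40 with limma-voom on recovered reads, and lay between 5 and 181 when any library was dropped (8 without vehicle 2, 5 without vehicle 3, 7 without SR4 2). With the replicate block it was 396. The labels give SR4 and vehicle libraries shared numbers but no shared animal or day. Deviations from the group means correlated at 0.174 for number 1 and 0.112 for number 2, over 2 pairs. The deviations of the 2 SR4 libraries mirror each other, so these values cannot show whether a pairing exists. The numbers are not taken as a pairing because the labels give none. The replicate block left the count of members at 0. It added calls in lists that otherwise had 0: Srxn1 among the thioredoxin partners (-1.18, limma adjusted p = 0.0378), 1 of the other dismutases and peroxidases (0.0422), 3 of 9 macrophage markers (smallest 0.0279) and 3 of 8 stellate markers (smallest 0.0301), with 1 macrophage marker above 0. The 95% intervals differed in width among members, from 0.879-fold to 1.37-fold for Prdx2 to 0.452-fold to 0.995-fold for Gpx4.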

Other observations

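Markers of other cell types were read beside the enzymes. Of 8 endothelial markers 0 passed, with a median log2 fold change of -0.03, and they summed to 4744 and 2642 normalised counts in SR4 libraries, against 3170, 3394 and 4563 in vehicle libraries. A single library set the direction: the median was 0.36 with 7 of 8 above 0 without SR4 2, and -0.49 with 0 of 8 above 0 without SR4 1. The most abundant were Clec4g and Stab2. Few markers of neutrophils and cholangiocytes were measured. The neutrophil markers S100a8 and S100a9 summed to 17.3 and 15.1 in SR4 libraries, against 41.7, 25.5 and 15.6 in vehicle libraries, and the cholangiocyte marker Spp1 had 1252 and 716, against 3510, 1147 and 1051. Neither group of values separated SR4 from vehicle libraries.

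Gpx6, a glutathione peroxidase outside the lists that was chosen after its values were seen, had 63.2 and 68.6 normalised counts in SR4 libraries, against 24.3, 18.9 and 28.4 in vehicle libraries. The groups did not overlap, and the log2 fold change of 1.45 ± 0.35 did not pass (limma adjusted p = 0.0929).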
